A study of Mus musculus with 6 samples.

Results

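The genes described here are *Ptgs1*, *Ptgs2*, *Ptges*, *Hpgds*, *Tbxas1*, *Alox5*, *Alox5ap*, *Alox15*, *Lta4h* and *Ltc4s*, which make prostaglandins, thromboxane and leukotrienes from arachidonic acid. They were chosen by name, and all 10 were found among the 24445 genes of the count table. The cells were bone marrow-derived macrophages (BMDMs) of female mice, grown for 7 days in medium with L929-conditioned medium and treated with IL-4 for 24 h. In the AclyM-KO mice (C57Bl/6J) exon 9 of *Acly*, flanked by loxP, was removed by Cre driven from *Lyz2*, a gene of myeloid cells, and the Ctrl littermates carried the same floxed *Acly* alleles. Macrophages without IL-4 were not analysed here. Each group had 3 libraries, which the study calls biological replicates in one place and technical replicates of cells from 3 pooled mice in another. The tests therefore measure the spread between libraries, which may be technical.

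Eicosanoid synthesis starts when phospholipases free arachidonic acid from membranes. The cyclooxygenases convert it to prostaglandin H2, from which terminal synthases make prostaglandin E2, prostaglandin D2 or thromboxane A2. On the other branch, 5-lipoxygenase works with its activating protein to make leukotriene A4, which is turned into leukotriene B4 or leukotriene C4. Macrophages are a well-known source of both kinds of lipid. Acly makes acetyl-CoA from citrate in the cytosol, from which the units that lengthen fatty acids are formed.

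The libraries held 12151975 to 15587283 counts on the rows used. *Acly* was at 41.4% of the Ctrl mean in AclyM-KO, and its log2 fold change was -1.27 (edgeR adjusted p = 5.22e-10). All 10 macrophage markers checked were detected, and *Csf1r*, the receptor of the macrophage growth factor, had a mean of 2434 CPM in Ctrl and 2119 CPM in AclyM-KO. CPM is the count of a gene per 1000000 counts of its library, after TMM scaling of the library total. Fold changes are given as log2 of AclyM-KO over Ctrl. A gene passed the test when its edgeR quasi-likelihood p-value, adjusted over 12023 genes with the Benjamini-Hochberg method, was under 0.05.

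Of the 10 genes, 9 had enough counts to be tested, and *Alox15* had not. In AclyM-KO, 2 of the 9 fell, *Ptgs1* and *Tbxas1*, where 12.6% of all genes tested fell. *Alox5* rose, 1 of the 9, where 12.4% of all genes tested rose. The groups did not overlap for 4 genes that were lower (19.8% of all genes tested) and 1 that was higher (20.5%). The median log2 fold change was -0.012 over the 9 genes and 0.0014 over all genes tested.

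**Figure D1:**
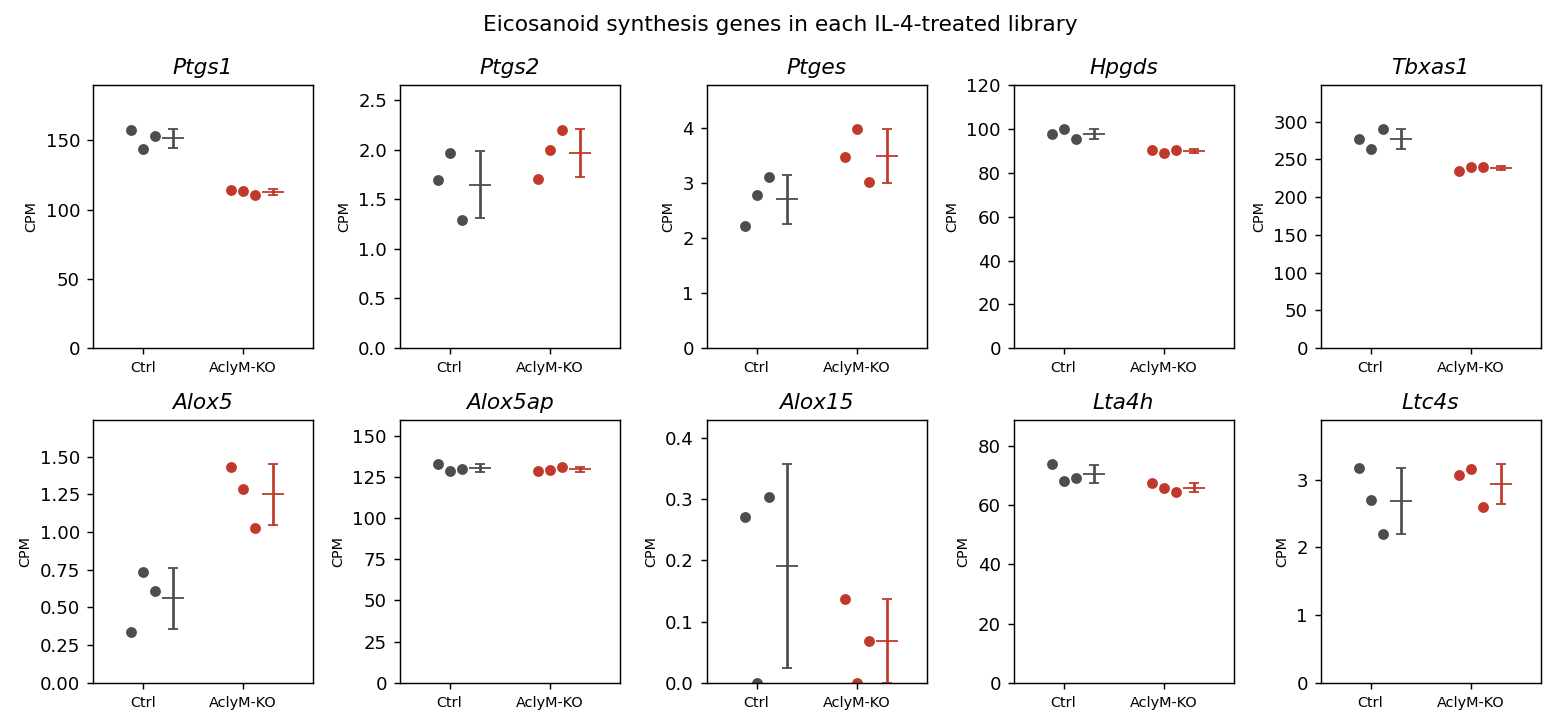
Expression of the 10 genes in each library, in CPM on a linear axis from 0. Points are the 3 Ctrl (grey) and 3 AclyM-KO (red) libraries, with mean and SD beside them; *Ptgs1* lies at 144 to 157 CPM in Ctrl and at 111 to 114 CPM in AclyM-KO, while the *Alox5ap* groups overlap.

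*Ptgs1* encodes cyclooxygenase-1, the constitutive form of the enzyme that commits arachidonic acid to prostanoids. The gene spans 36230426 to 36252272 on the plus strand of chromosome 2 (GRCm38, GENCODE M21, as for all positions below), with 11 exons in the transcript counted. It had 157, 144 and 153 CPM in Ctrl, against 114, 114 and 111 CPM for AclyM-KO. Every AclyM-KO library was below every Ctrl library, and the AclyM-KO libraries lay closer together. The mean went from 152 ± 6.87 CPM to 113 ± 1.99 CPM (SD, n = 3 each). On the log2 scale the difference was -0.43 (95% interval -0.53 to -0.32, SE 0.0508), with an edgeR adjusted p of 2.15e-05, and expression stood at 74.4% of the Ctrl level. It kept its call with each library left out, with fold changes of -0.47 to -0.40. A two-sided exact permutation test over the 6 libraries gave p = 0.10, the smallest that 3 against 3 allow. Exons of a gene on the other strand cover 5.2% of its transcript. Whether counting used strand is uncertain, since the counting program is not given. *Xist* and its antisense partner *Tsix* had equal counts in 5 of the 6 libraries, which does not by itself settle this.

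*Ptgs2* encodes cyclooxygenase-2, the form that inflammatory stimuli induce, and lies on chromosome 1 from 150100031 to 150108227. Ctrl had 25, 24 and 17 counts, against 25, 31 and 32 for AclyM-KO. The groups overlapped, and at this depth no difference was detectable, with a log2 fold change of 0.26 (95% interval -0.31 to 0.82, edgeR adjusted p = 0.527). Each library held 50.4 to 119 times as many *Ptgs1* as *Ptgs2* counts.

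Of the terminal prostanoid synthases, *Tbxas1* encodes thromboxane A synthase, a cytochrome P450 enzyme. The gene spans 38875404 to 39084585 on chromosome 6, with 13 exons in the transcript counted. Its expression was 277, 263 and 290 CPM in Ctrl and 235, 241 and 240 CPM in AclyM-KO. All AclyM-KO libraries were below all Ctrl libraries. The means were 277 ± 13.6 CPM in Ctrl and 239 ± 3.02 CPM in AclyM-KO (SD, n = 3 each). The gene fell by 0.21 on the log2 scale (95% interval -0.32 to -0.11, SE 0.0495), with an edgeR adjusted p of 0.00517. With each library left out the fold change was -0.25 to -0.18, and the call was kept.

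*Hpgds* encodes the haematopoietic prostaglandin D synthase and spans 65117293 to 65144908 on the minus strand of chromosome 6. It had 97.9, 100.1 and 95.3 CPM in Ctrl and 90.5, 89.0 and 90.3 CPM in AclyM-KO. All AclyM-KO libraries were lower, but the difference was small, with a log2 fold change of -0.12 (95% interval -0.22 to -0.018, unadjusted). It did not pass the adjustment (edgeR adjusted p = 0.0809) and passed it when libraries were scaled by their totals alone (-0.14, edgeR adjusted p = 0.0437). *Ptges*, on chromosome 2 from 30889471 to 30929863, encodes the inducible microsomal prostaglandin E synthase. Its levels were low, at 2.23, 2.78 and 3.11 CPM in Ctrl and 3.48, 3.99 and 3.02 CPM in AclyM-KO. Its highest Ctrl library was above its lowest AclyM-KO library, and the log2 fold change of 0.38 (95% interval -0.080 to 0.83) did not pass the test (edgeR adjusted p = 0.221).

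On the leukotriene branch, *Alox5* encodes 5-lipoxygenase, which begins leukotriene synthesis. The gene spans 116410077 to 116461178 on the minus strand of chromosome 6, and its counts were few, 5, 9 and 8 in Ctrl against 21, 20 and 15 in AclyM-KO. The groups did not overlap. Scaled to the library, this was 0.560 ± 0.203 CPM in Ctrl and 1.25 ± 0.205 CPM in AclyM-KO (SD, n = 3 each). The gene rose by 1.17 on the log2 scale (95% interval 0.37 to 1.98, SE 0.378), with an edgeR adjusted p of 0.0334. DESeq2 gave the same fold change of 1.17 with an adjusted p of 0.144. It no longer passed without Ctrl replicate 1 (0.89) or 3 (1.24) and without AclyM-KO replicate 1 (1.07) or 2 (1.15), with edgeR adjusted p-values of 0.0696 to 0.14.

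*Alox5ap* encodes the 5-lipoxygenase activating protein FLAP, a membrane protein that presents arachidonic acid to 5-lipoxygenase. It lies on chromosome 5 from 149264767 to 149288153, and exons of a gene on the other strand cover 15.1% of its transcript. Its expression was 133, 129 and 130 CPM in Ctrl and 128, 129 and 131 CPM in AclyM-KO, the 2 groups overlapping. The log2 fold change was -0.012 with a 95% interval of -0.11 to 0.088 (edgeR adjusted p = 0.882). *Lta4h*, on chromosome 10 from 93453411 to 93484875, encodes leukotriene A4 hydrolase, which makes leukotriene B4. It had 73.9, 68.1 and 69.1 CPM in Ctrl and 67.3, 65.8 and 64.4 CPM in AclyM-KO. The groups did not overlap, by a narrow margin, and the log2 fold change of -0.098 (95% interval -0.21 to 0.015) did not pass the test (edgeR adjusted p = 0.198).

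*Ltc4s* encodes leukotriene C4 synthase, which joins glutathione to leukotriene A4 and so begins the cysteinyl leukotrienes. It lies on chromosome 11 from 50236461 to 50238616. Ctrl had 47, 33 and 29 counts, against 45, 49 and 38 for AclyM-KO, with overlapping groups and a log2 fold change of 0.12 (95% interval -0.34 to 0.59, edgeR adjusted p = 0.732). Exons of a gene on the other strand cover 40% of its transcript, so its counts are uncertain. *Alox15*, on chromosome 11 from 70344152 to 70352031, encodes the mouse 12/15-lipoxygenase, an enzyme that IL-4 is known to induce in some macrophages. Ctrl had 4, 0 and 4 counts, against 2, 0 and 1 for AclyM-KO. A count of 0 allows up to 0.245 CPM in Ctrl replicate 2 and 0.193 CPM in AclyM-KO replicate 2, limits that cover counting error only. Over the groups, the ratio of AclyM-KO to Ctrl was 0.337 with a 95% counting interval of 0.0575 to 1.4, so no difference was detectable at this depth.

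**Figure D2:**
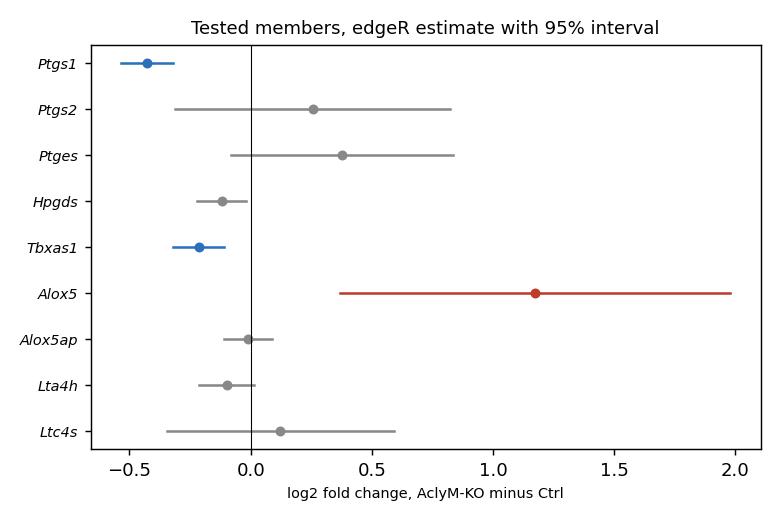
Log2 fold changes of the 9 tested genes with 95% intervals, unadjusted, in AclyM-KO against Ctrl. Blue marks genes that fell, *Ptgs1* (-0.43) and *Tbxas1* (-0.21), red the gene that rose, *Alox5* (1.17), and grey genes that did not pass the test.

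Ratios of counts between genes of the same library do not depend on how libraries are scaled. For each *Hpgds* count there were 1.61, 1.44 and 1.61 *Ptgs1* counts in Ctrl and 1.26, 1.28 and 1.22 in AclyM-KO, without overlap. The ratio of *Ptgs1* to *Tbxas1* was 0.568, 0.547 and 0.528 in Ctrl and 0.485, 0.473 and 0.460 in AclyM-KO, again without overlap. *Ptgs1* was therefore lower relative to *Hpgds* and *Tbxas1*. For the third synthase gene, *Ptges*, counts were low. Per 1000 *Ptgs1* counts there were 14.2, 19.3 and 20.3 *Ptges* counts in Ctrl and 30.5, 35 and 27.3 in AclyM-KO, also without overlap. By contrast *Hpgds* per *Tbxas1* overlapped, at 0.328 to 0.380 in Ctrl and 0.370 to 0.385 in AclyM-KO. Per 1000 *Alox5ap* counts there were 2.54, 5.72 and 4.69 *Alox5* counts in Ctrl and 11.2, 9.99 and 7.85 in AclyM-KO. The lipoxygenase transcript was thus scarce beside that of its activating protein in both groups.

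**Figure D3:**
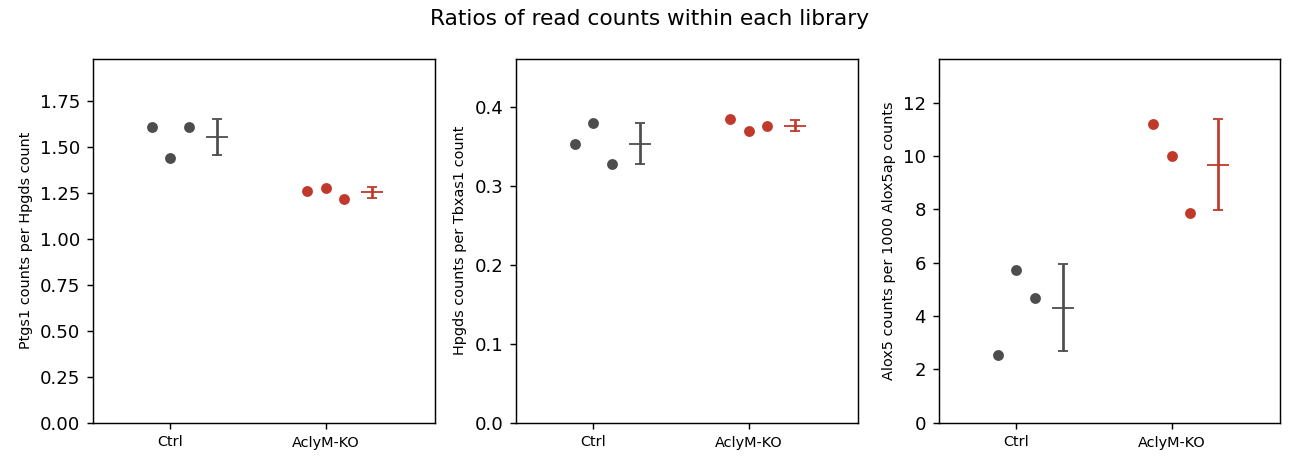
Ratios of read counts within each library, on linear axes from 0, for Ctrl (grey) and AclyM-KO (red), with mean and SD beside the points. *Ptgs1* per *Hpgds* is 1.44 to 1.61 in Ctrl and 1.22 to 1.28 in AclyM-KO, *Hpgds* per *Tbxas1* overlaps, and *Alox5* per 1000 *Alox5ap* counts is higher in AclyM-KO.

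To compare levels between genes, CPM was divided by the length of the counted transcript in kilobases. On this scale *Tbxas1* had the highest level in Ctrl (139 ± 6.83, SD, n = 3), followed by *Alox5ap* (104 ± 1.82), *Ptgs1* (52.8 ± 2.39), *Lta4h* (34.7 ± 1.52), *Hpgds* (28.1 ± 0.689) and *Ltc4s* (5.61 ± 1.02). These 6 levels were separated beyond their spread over libraries. *Ptges* (0.742 ± 0.122), *Ptgs2* (0.370 ± 0.0760), *Alox5* (0.199 ± 0.0720) and *Alox15* (0.0794 ± 0.0691) were all below 1 CPM per kilobase, and the *Alox5* and *Alox15* libraries overlapped at 0.120 to 0.261 and 0 to 0.126. In AclyM-KO the order of the first 7 was as in Ctrl, whereas *Alox5* (0.443 ± 0.0727) and *Ptgs2* (0.441 ± 0.0550) overlapped. For *Ltc4s* the transcripts in the table differ in length, 480 to 649 bases, and shared the same counts, so its level depends on the transcript chosen.

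Promoter sequences are shown for the 3 genes that passed the test, as the 250 bases before the RefSeq start on GRCm38.p6, 5′ to 3′ on the strand of the gene. RefSeq promoters were matched for 8 of the 10 genes, all but *Alox5ap* and *Alox15*. Capitals mark matches, on either strand, to the core motif GAGGAA of PU.1, the myeloid lineage factor, to the AP-1 motif TGANTCA, or to TTC and GAA with 4 bases between them, the spacing that STAT6, the transcription factor activated by IL-4, prefers. The first lies at chr2:36230176-36230425 (plus strand), the second at chr6:38918736-38918985 (plus strand) and the last at chr6:116461179-116461428 (minus strand). For *Tbxas1* the RefSeq start lies inside the gene span given above.
*Ptgs1*: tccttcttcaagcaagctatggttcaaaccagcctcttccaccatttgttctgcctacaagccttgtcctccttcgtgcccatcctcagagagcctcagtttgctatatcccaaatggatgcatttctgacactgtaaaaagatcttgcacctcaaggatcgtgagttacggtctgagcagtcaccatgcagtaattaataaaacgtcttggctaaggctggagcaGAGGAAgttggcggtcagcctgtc
*Tbxas1*: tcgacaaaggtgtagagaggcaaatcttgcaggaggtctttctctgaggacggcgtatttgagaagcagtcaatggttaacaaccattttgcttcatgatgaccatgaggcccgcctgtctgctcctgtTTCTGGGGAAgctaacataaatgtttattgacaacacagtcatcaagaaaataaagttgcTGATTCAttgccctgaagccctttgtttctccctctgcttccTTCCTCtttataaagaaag
*Alox5*: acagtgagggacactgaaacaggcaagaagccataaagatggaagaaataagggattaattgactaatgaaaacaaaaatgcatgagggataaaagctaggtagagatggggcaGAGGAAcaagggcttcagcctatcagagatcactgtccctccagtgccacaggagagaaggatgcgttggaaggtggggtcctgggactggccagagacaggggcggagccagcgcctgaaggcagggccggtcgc

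The PU.1 core was found in 7 of the 8 promoters, all but that of *Ltc4s*, and in 23.3% of 32851 promoters of the same length. In *Ptgs1* and *Tbxas1*, which fell, it lay 19 to 24 and 14 to 19 bases before the start, and in *Alox5*, which rose, 131 to 136 bases before it. The STAT6 spacing was found in the promoters of *Tbxas1* and *Ptges* (5.85% of all promoters) and the AP-1 motif in that of *Tbxas1* (6.75%). For *Ptges*, as for *Tbxas1*, the RefSeq start used lies well inside the gene span given above. No member promoter held the hypoxia response core ACGTG (16.6%) or the cyclic AMP response element TGACGTCA (1.55%). These are matches of letters only, and factor binding was not measured.

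Genes around these enzymes were read from lists of 83 genes in all, of which 55 were tested. In AclyM-KO, 11 of the 55 rose (12.4% of all genes tested) and 11 fell (12.6% of all genes tested), and the median log2 fold change was 0.0018. In the list of arachidonate supply and release, 4 of the 20 tested genes rose and 5 fell, beside 12.4% and 12.6% of all genes tested (median 0.015). *Fads2*, a desaturase on the route to arachidonic acid, rose from 37.4, 39.8 and 37.0 CPM in Ctrl to 74.1, 70.4 and 76.1 CPM in AclyM-KO (log2 fold change 0.95, edgeR adjusted p = 3.30e-08). The other desaturase, *Fads1*, rose by less (0.17, edgeR adjusted p = 0.0175), as did *Lpcat3*, which puts arachidonic acid into phospholipids (0.15, edgeR adjusted p = 0.0295). The most highly expressed genes of the list that did not pass were *Abhd12*, a monoacylglycerol lipase, at -0.0061, *Acsl4*, which activates arachidonic acid, at -0.0021, and the fatty acid elongase *Elovl5* at 0.034, with edgeR adjusted p-values of 0.951, 0.982 and 0.640. Both small increases lost their call without single libraries, *Fads1* without any 1 AclyM-KO library (0.15 to 0.18) and *Lpcat3* without Ctrl replicate 1 or 3 or any AclyM-KO library (0.138 to 0.155), and *Lpcat3* also with DESeq2 (adjusted p = 0.0567) and library totals only (0.13).

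Phospholipase genes moved in both directions. *Pla2g4a* encodes cytosolic phospholipase A2, the main enzyme that frees arachidonic acid for eicosanoids. It had 26.6, 25.6 and 25.5 CPM in Ctrl and 22.0, 21.9 and 19.6 CPM in AclyM-KO, without overlap (-0.29, edgeR adjusted p = 0.0155). *Pla2g7* (-0.59, edgeR adjusted p = 2.83e-04), whose product hydrolyses platelet-activating factor, *Pla2g6* (-0.47, edgeR adjusted p = 0.0121) and the lysosomal *Pla2g15* (-0.22, edgeR adjusted p = 0.0103) also fell. So did the diacylglycerol lipase gene *Daglb* (-0.31, edgeR adjusted p = 2.03e-04). In contrast *Pla2g5*, which encodes a secreted phospholipase A2, rose from 19.5, 24.1 and 20.6 CPM to 35.6, 34.3 and 30.6 CPM (0.65, edgeR adjusted p = 9.07e-05). The calls of *Pla2g4a* (-0.24) and *Pla2g6* (-0.38) were lost without AclyM-KO replicate 3, that of *Pla2g6* also without AclyM-KO replicate 1 (-0.43), and that of *Pla2g15* without AclyM-KO replicate 2 (-0.21).

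**Figure D4:**
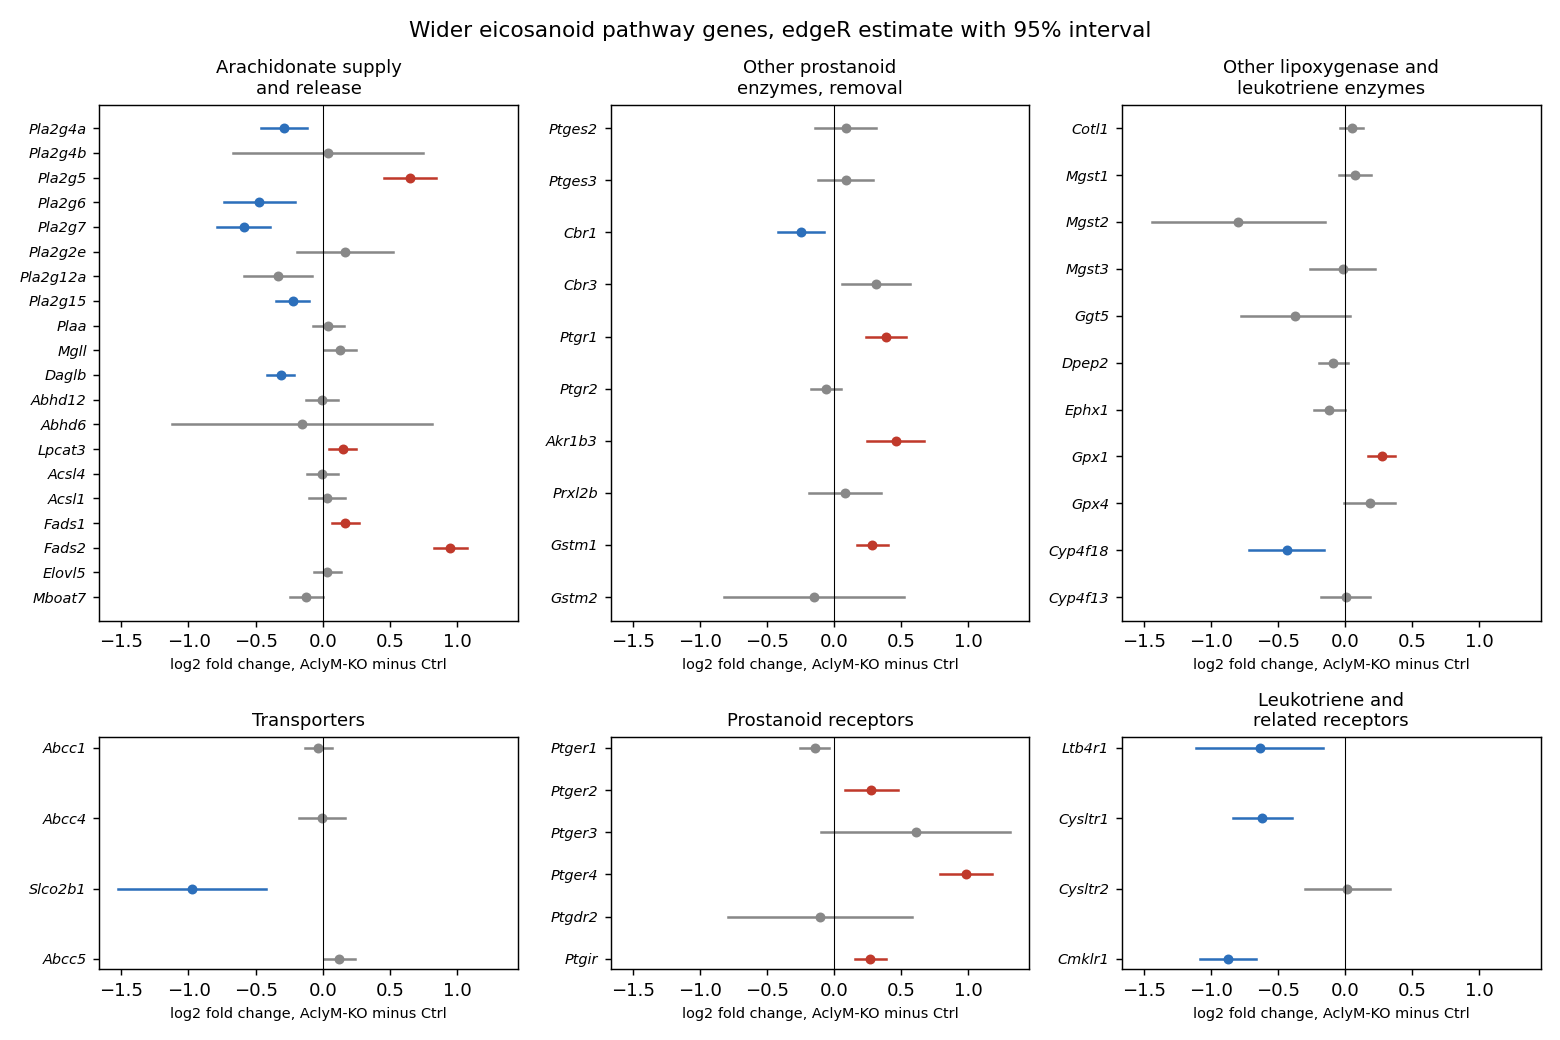
Log2 fold changes of 55 tested genes of the wider eicosanoid lists, AclyM-KO against Ctrl, with unadjusted 95% intervals, by role. Red marks genes that rose (11), blue genes that fell (11) and grey genes that did not pass the test; in the receptor panels *Ptger4* stands at 0.98 and *Cmklr1* at -0.87.

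Among other prostanoid enzymes, 3 of the 10 tested rose (12.4% of all genes) and 1 fell (12.6%), with a median of 0.087. *Ptgr1*, which encodes a reductase that inactivates leukotriene B4 and 15-keto-prostaglandins, rose from 38.4 to 50.3 CPM in the mean (0.39, edgeR adjusted p = 9.13e-04). The aldose reductase gene *Akr1b3* (0.46, edgeR adjusted p = 0.00340) and the glutathione transferase gene *Gstm1* (0.29, edgeR adjusted p = 9.74e-04) rose too, and the carbonyl reductase gene *Cbr1* fell (-0.24, edgeR adjusted p = 0.0378). *Gstm1* has near-identical paralogs, so its counts are uncertain. The call of *Cbr1* was lost with DESeq2 (adjusted p = 0.127), with the replicate block (edgeR adjusted p = 0.0621) and without any library but Ctrl replicate 3 (-0.26 to -0.21). The constitutive prostaglandin E synthase genes *Ptges2* (0.088) and *Ptges3* (0.086) did not pass the test (edgeR adjusted p = 0.599 and 0.557), nor did the reductase gene *Ptgr2* (-0.058, edgeR adjusted p = 0.461). *Ptgds* had no counts in any library.

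Of the other lipoxygenase and leukotriene enzymes, 1 of 11 tested rose and 1 fell, near the 12.4% and 12.6% of all genes tested (median -0.019). *Gpx1*, a glutathione peroxidase that reduces lipid hydroperoxides, rose by 0.27 (edgeR adjusted p = 6.21e-04), and *Cyp4f18*, a P450 enzyme that inactivates leukotriene B4, fell by 0.44 on the log2 scale (edgeR adjusted p = 0.0236). The call of *Cyp4f18* was lost without Ctrl replicate 1 (-0.36) or AclyM-KO replicate 1 (-0.31). *Cotl1*, whose product binds 5-lipoxygenase, had the highest expression of the list, at 676 CPM in Ctrl and 699 CPM in AclyM-KO (edgeR adjusted p = 0.407). The microsomal glutathione transferase gene *Mgst1* (0.074, edgeR adjusted p = 0.361) and the dipeptidase gene *Dpep2* (-0.089, edgeR adjusted p = 0.215) did not pass either. Of 4 tested transporters, *Slco2b1* fell by 0.97 on the log2 scale (edgeR adjusted p = 0.0122) but did not pass without Ctrl replicate 1 (-0.77) or AclyM-KO replicate 2 (-0.72). *Abcc1*, which exports leukotriene C4, was at -0.031 (edgeR adjusted p = 0.684), and *Abcc4*, which exports prostaglandins, at -0.0023 (edgeR adjusted p = 0.987), while *Abcc5* was at 0.13 (edgeR adjusted p = 0.101).

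Receptor genes for the products were also read. Of 6 tested prostanoid receptors 3 rose (12.4% of all genes tested) and 0 fell (12.6%) by the edgeR test (median log2 fold change 0.28). At an unadjusted edgeR p under 0.05 there were 4 in either direction, beside 4416 of all 12023 genes tested. *Ptger4*, the prostaglandin E2 receptor EP4, rose from 17.0, 14.0 and 13.8 CPM in Ctrl to 30.4, 28.7 and 29.7 CPM in AclyM-KO (0.98, standard error 0.0915, edgeR adjusted p = 1.76e-06). All AclyM-KO libraries were far above all Ctrl libraries. The prostacyclin receptor *Ptgir* rose from 103, 108 and 101 CPM to 128, 130 and 118 CPM (0.27, edgeR adjusted p = 0.00194), and the EP2 receptor *Ptger2* by 0.28 (edgeR adjusted p = 0.0381). The EP1 receptor *Ptger1* was lower without passing the test (-0.14, edgeR adjusted p = 0.0531), and *Ptgdr2* and *Ptger3*, both with group means under 2 CPM, gave -0.11 and 0.61 (edgeR adjusted p = 0.845 and 0.201). The call of *Ptger2* was lost with DESeq2 (adjusted p = 0.0589), with library totals only (0.26) and without Ctrl replicate 2 (0.17) or AclyM-KO replicate 1 (0.22) or 3 (0.28).

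Of the receptors for leukotrienes and related ligands, 4 of 10 were tested, and 3 of these fell (12.6% of all genes tested) and 0 rose (12.4%) by edgeR. The same 3 were those at an unadjusted edgeR p under 0.05, beside 4416 of all 12023 genes tested in either direction. The median log2 fold change was -0.63. *Cysltr1*, a receptor of the cysteinyl leukotrienes, had 20.7, 22.3 and 24.7 CPM in Ctrl and 15.01, 13.0 and 16.1 CPM in AclyM-KO (-0.62, edgeR adjusted p = 4.18e-04). *Cmklr1*, a receptor for chemerin and the lipid resolvin E1, fell from 28.0, 23.9 and 25.3 CPM to 12.6, 14.7 and 15.01 CPM (-0.87, edgeR adjusted p = 1.10e-05). The leukotriene B4 receptor *Ltb4r1* fell from 4.72 to 3.02 CPM in the mean (-0.64, edgeR adjusted p = 0.0482). It did not pass with DESeq2 (adjusted p = 0.101), limma-voom (adjusted p = 0.0642) and without Ctrl replicate 3 (-0.40) or any AclyM-KO library (-0.70 to -0.53). *Cysltr2* was at 0.015 (edgeR adjusted p = 0.954). Whether the 2 receptor groups differ from each other was not tested.

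Other cell types can carry these transcripts, since *Alox5* and *Hpgds* are well expressed in granulocytes or mast cells, and *Tbxas1* and *Ptgs1* in platelets. In bulk RNA, fewer cells of a type and less RNA per cell cannot be told apart. Of 11 mast cell and basophil markers 7 were at 0 in all libraries, among them *Ms4a2*, *Fcer1a* and *Mcpt8*, and the list summed to 3.31 to 6.07 CPM in Ctrl and 8.02 to 9.48 CPM in AclyM-KO, most of it *Kit*, which rose from 3.19 to 7.61 CPM (edgeR adjusted p = 1.65e-04). The 6 platelet and megakaryocyte markers, 3 of them at 0, summed to at most 0.900 CPM in any library. The 10 neutrophil markers summed to 33.3 to 35.9 CPM in Ctrl and 63.8 to 68.1 CPM in AclyM-KO. Of the 5 tested, *Mmp8*, *S100a8* and *S100a9* rose (12.4% of all genes tested), *Mmp8* from 16.9 to 40.1 CPM in the mean. *Ltf* and *Ngp* did not pass (edgeR adjusted p = 0.206 and 0.108), while *Ly6g*, *Elane*, *Mpo* and *Camp* were each under 0.2 CPM on average. Of 10 macrophage markers 6 fell (12.6% of all genes tested) and 1, *Adgre1*, rose (12.4%). The list summed to 14400 to 15900 CPM in Ctrl and 11900 to 12400 CPM in AclyM-KO. *Lyz2*, the gene that drives Cre in AclyM-KO, was the most abundant and fell from 6595 to 4142 CPM in the mean. *Csf1r* fell from 2434 to 2119 CPM, and *Adgre1* rose from 1573 to 1978 CPM. The eosinophil markers summed to 20.8 to 27.2 CPM in Ctrl and 20 to 27.2 CPM in AclyM-KO. Most of this was *Ccr3*, with means of 21.2 CPM in Ctrl and 21.0 CPM in AclyM-KO. *Siglecf* had means of 1.81 and 1.99 CPM, *Prg2* and *Epx* were each under 0.2 CPM on average, and *Il5ra* was at 0. The dendritic cell markers summed to 8.51 to 11.7 CPM in Ctrl and 9.21 to 10.3 CPM in AclyM-KO. Among them *Cd209a*, with group means under 1 CPM, rose (edgeR adjusted p = 0.0128). Fibroblast and lymphocyte markers summed to at most 1.3 and 0.608 CPM in any library. The neutrophil sum, of which *Mmp8* was the largest part, and *Kit* moved with *Alox5*. The macrophage sum, of which *Lyz2* was the largest part, moved with *Ptgs1* and *Tbxas1*. The part of these markers in the results was not tested.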

How the data were processed

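RNA was sequenced from 3 Ctrl and 3 AclyM-KO libraries of IL-4-treated BMDMs. The deposited values are read counts per RefSeq transcript, made by the authors from strand-specific mRNA libraries with CASAVA 1.8.2 and STAR 2.5.2b on mm10, per the labels and the study's methods; the counting program is not given in the sources used here. The table has 35745 rows, of which 117 without a gene name (0.37% to 1.38% of counts) were left out. For each gene the transcript with the highest total was used. Library totals were 12151975 to 15587283.

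Genes that passed filterByExpr were scaled by TMM and tested with the edgeR 4.0.16 quasi-likelihood test in R 4.3.3, with genotype as the only term; Benjamini-Hochberg adjustment ran over 12023 genes. Intervals are unadjusted. The code was tested on simulated data. DESeq2 1.42.0, limma-voom (limma 3.58.1), other scalings and filters, fold change limits, a replicate block and leaving out each library were alternatives. Exact permutation tests used log2(CPM + 0.5). The 10 genes, the wider lists and the markers were chosen with earlier results of these data known. Every wider-list gene that passed was named, with up to 3 others per list by highest mean CPM; *Ptgds* and the genes under other observations were added after their values were seen. Intervals of edgeR fold changes include the spread between libraries. Intervals called counting intervals, counting limits and floors cover counting error only.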

Additional observations from a re-analysis of the deposited data

How the results depend on the processing

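Of the 10 genes, 1 rose in AclyM-KO and 2 fell. *Alox5* did not pass with DESeq2 or with glmTreat at a log2 limit of 0.58, and was not tested under a filter of 50 counts in 3 libraries, so 0 genes rose there. With each library left out, 0 to 1 rose and 2 fell. With the limit of 0.58 added to the adjusted p, or with glmTreat, 0 fell, since *Ptgs1* and *Tbxas1* changed by less than the limit. Over all genes tested, 1485 rose and 1511 fell. With the limit, 358 rose and 309 fell, and with glmTreat 77 and 41. With each library left out, 1002 to 1512 rose and 972 to 1548 fell, the lowest counts being without AclyM-KO replicate 2. In the wider lists 11 rose and 11 fell, against 3 and 5 with the limit and 2 and 0 with glmTreat. With each library left out, 8 to 10 rose and 7 to 12 fell. DESeq2 called 1120 and 1146 of all genes, and library totals only gave 1283 and 1710.

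Differences near 0 changed sign without 1 library. *Alox5ap* ranged from -0.0258 to 0.000386 (above 0 without Ctrl replicate 1) and *Ltc4s* from -0.00862 to 0.266 (below 0 without Ctrl replicate 3). The replicate numbers did not pair the libraries, with correlations of deviations between same-numbered libraries of -0.0651, 0.0498 and -0.0314. The fit with a replicate block called 1315 genes higher and 1329 lower, and among the 10 genes 1 higher and 2 lower. Under the block *Lpcat3* (adjusted p = 0.0677) and *Cbr1* (adjusted p = 0.0621) did not pass. Depth limits *Alox5*, *Alox15*, *Ptgs2*, *Ptges* and *Ltc4s*, which had at most 62 counts in any library. The cause of the differences between settings was not tested.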

Other observations

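A pair of genes on the wider lists held too few counts for the filter and were singled out after their values were seen. *Akr1c18*, a member of the aldo-keto reductase family that acts on steroids and prostaglandins, was at 0 in every Ctrl library, against 10, 10 and 13 counts for AclyM-KO. With Ctrl set to a floor of 3 counts over the group, the ratio was 9.87, and the lower 95% counting limit of the ratio was 7.59. Without the filter its edgeR adjusted p was 8.17e-06. Members of this family are similar in sequence, so the counts are uncertain. *Elovl2*, an elongase of polyunsaturated fatty acids, had 1, 0 and 1 counts in Ctrl, against 6, 17 and 7 for AclyM-KO. The ratio was 13.5 with a 95% counting interval of 3.42 to 116, and the edgeR adjusted p without the filter was 0.000971.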
